A study of Mus musculus with 8 samples.

Results

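Expression in the whole mouse retina at E18 was compared with expression in the Cd73-positive cells (Cd73PC) sorted at P2. Rows of the 2 tables were joined on gene name and locus, rows of small RNAs were left out, and rows with an FPKM of at least 1 in either table were kept. FPKM, a fragment count per unit of transcript length and of sequenced fragments, corrects for the length of a transcript and for sequencing depth. This left 12782 rows of 23021, after 800 small RNA rows, 12 rows without a value, and 9427 rows below FPKM 1 in both tables had been removed. RNA sequencing of poly(A)-selected RNA had been done in 8 samples of ICR mice (slc:ICR), namely whole retina at E15 or E18, and Cd73PC or Cd73-negative cells (Cd73NC) at P2, P5, and P8. All were wild type. The E18 sample was unsorted retina. The P2 Cd73PC sample came from pooled retinas that were dissociated with trypsin, stained with an antibody to Cd73 and with propidium iodide, and sorted by flow cytometry. The labels do not give the sex of the animals.

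Each condition had 1 library, so no difference could be set against a replicate error, and no test was run. Age and sorting differ together between the libraries and cannot be told apart. In bulk RNA, fewer cells of a type and less RNA per cell cannot be told apart either. "Higher" and "lower" below mean at least 2-fold apart on FPKM + 1 unless a value is given alone. Absolute depth is unknown. From the steps of weakly expressed rows, the P2 Cd73PC library was 1.62 times as deep as the E18 library. Xist, the noncoding RNA of the inactive X chromosome, had an FPKM of 34.7 at E18 and 3.46 in P2 Cd73PC. Ddx3y, a Y-linked gene, had 5.06 and 13.1, and the part of the sex of the animals in the results was not tested.

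Rods are the light-sensing neurons for dim light, and in the mouse they are born from dividing progenitors before and after birth. Nrl and Nr2e3 are the transcription factors that direct a photoreceptor precursor to the rod fate, acting with Crx and Otx2. Cd73, encoded by Nt5e, is a surface enzyme that makes adenosine and marks rod precursors and mature rods.

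Of the 12782 rows, 933 (7.30%) were higher in P2 Cd73PC and 2136 (16.7%) were lower. The other 9713 were within 2-fold. Counts of lists below are to be read beside these shares of all rows. The median log2 ratio of P2 Cd73PC over E18 was -0.17, and the middle of the distribution ran from -0.73 at percentile 25 to 0.30 at percentile 75. At 8-fold the balance turned, with 80 rows higher and 63 lower, and at 32-fold there were 7 and 4. A ratio on FPKM + 1 cannot exceed the larger FPKM + 1. The median of that larger FPKM was 26.4 (P2 Cd73PC) for the higher rows and 10.3 (E18) for the lower rows. Counts at 8-fold and 32-fold were made with this pseudocount alone, and its part in the turn was not tested. After quantile normalization over the 8 libraries, which moved the median log2 ratio to 0.00, the counts were 1283 higher and 1499 lower. The split therefore depends in part on the scaling, with 30.4% of the changed rows higher as deposited and 46.1% after quantile normalization. Lower rows were the more numerous under both. With both libraries scaled to the same upper quartile instead, list counts stayed close to those as deposited. Of the higher rows, 161 were below FPKM 1 at E18, and of the lower rows, 562 were below FPKM 1 in P2 Cd73PC. Such rows passed the filter only through the other library, so their direction was set by it.

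**Figure D1:**
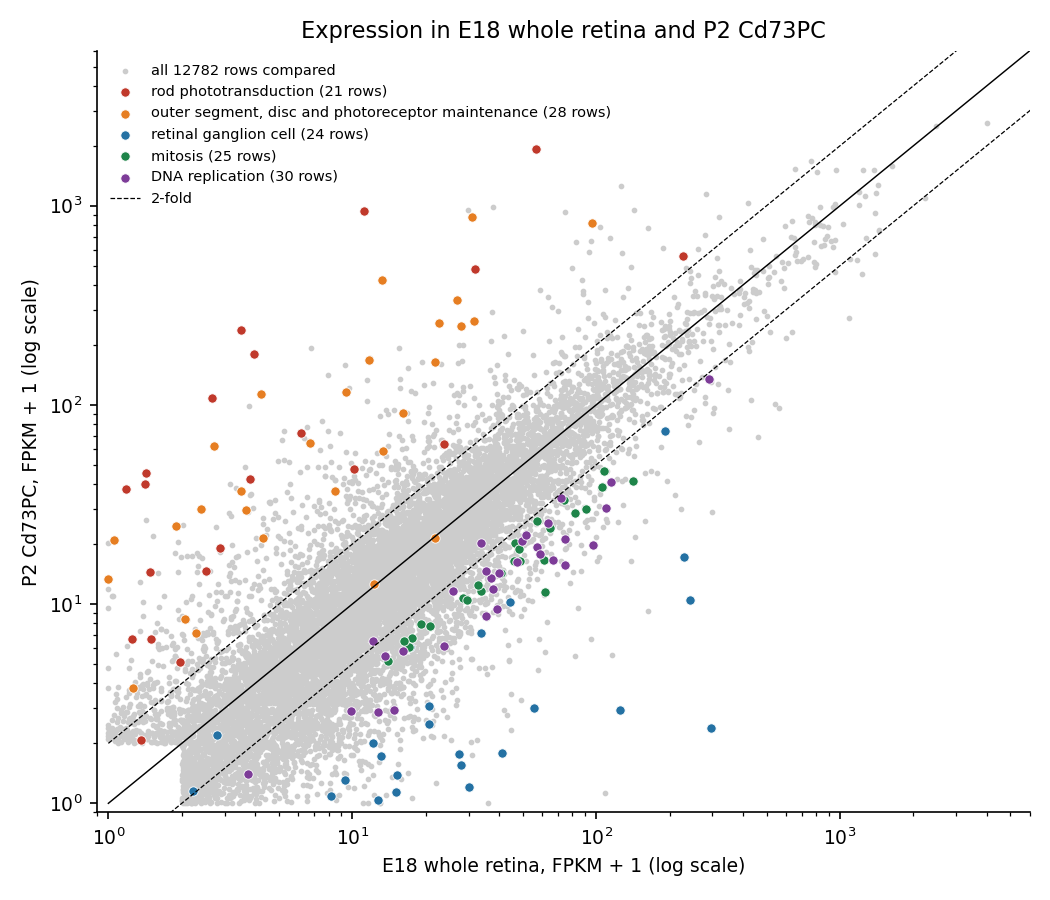
FPKM + 1 in E18 whole retina (horizontal axis) and P2 Cd73PC (vertical axis), both on log scales, for the 12782 rows compared (1 library each). Dashed lines mark 2-fold. The 20 higher rows of rod phototransduction lie above the upper line, and the 25 mitosis rows lie below the lower line.

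The rod fate factors were checked first. Nrl lies on chromosome 14 from 56137815 to 56143802 in NCBI37/mm9. Its FPKM was 36.9 at E18 and 984 in P2 Cd73PC, a log2 ratio of 4.70. That of Nr2e3, on chromosome 9 from 59790578 to 59797886, was 28.9 and 949.6, a log2 ratio of 4.99. Over the 8 libraries Nrl had an FPKM of 3.19 at E15, 36.9 at E18, 28.3 in Cd73NC and 984 in Cd73PC at P2, 277 and 1317 in them at P5, and 107 and 1417 at P8. Both factors were thus already detected in the unsorted E18 retina and stood at 69.5% (Nrl) and 83.3% (Nr2e3) of their P8 Cd73PC level by P2. Nt5e, the gene of the sort antigen, had an FPKM of 2.76 at E18 and 97.3 in P2 Cd73PC, and 2.43 in P2 Cd73NC. It was the only member of the adenosine list of 6 compared rows that was higher. Adk, which phosphorylates adenosine, had 14.2 and 10.2, and Slc29a1, a nucleoside transporter, had 12.5 and 12.7.

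Of 14 transcription factors of rods and photoreceptors, 9 were higher and 0 were lower, with a median log2 ratio of 1.75. Without a pseudocount 9 were higher and 1 was lower, namely Esrrb. Crx, the homeodomain factor of all photoreceptors, had an FPKM of 81.8 at E18 and 660 in P2 Cd73PC. Otx2, which acts upstream of Crx, had 162 and 777. Prdm1, which blocks the bipolar fate in photoreceptor precursors, had 30.6 and 108. Neurod1 had 113 and 687, and Samd7, a Polycomb-associated protein of rods, had 6.96 and 141. Otx2 and Prdm1 were above their P8 Cd73PC level at P2, at 220% and 227% of it, while Crx was at 68.3%. Rorb, a nuclear receptor needed for Nrl expression, was within 2-fold, with 43.2 and 52.6, and Esrrb, a receptor of mature rods, had 1.11 and 0.144.

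Phototransduction genes encode the cascade that runs through transducin and phosphodiesterase to the cyclic nucleotide-gated channel. Of their 21 compared rows (20 genes), 20 were higher and 0 lower, and the median log2 ratio was 3.48. Members below FPKM 1 at E18, such as Cnga1 and Pde6a, passed the filter only through P2 Cd73PC, so their direction was set by it. Without the filter, 20 of 23 rows were higher and 0 lower. The median FPKM was 1.88 at E18, 0.778 in P2 Cd73NC, and 44.3 in P2 Cd73PC. Gnat1, the rod transducin alpha subunit, had an FPKM of 1.52 at E18 and 13.7 in P2 Cd73PC. Gngt1, the rod transducin gamma subunit, had 2.49 and 238, and Gnb1, the beta subunit, which other cells also use, had 226 and 557. Each transducin subunit was higher, from very unequal levels at E18.

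The effector genes were as far apart. Pde6b, the beta subunit of the phosphodiesterase, had an FPKM of 1.67 at E18 and 107 in P2 Cd73PC, a log2 ratio of 5.34. Pde6a, the alpha subunit, had 0.249 and 5.69, and Pde6g, the inhibitory subunit, had 30.8 and 483. The partner catalytic subunits thus differed from each other in P2 Cd73PC, since FPKM is per length. Cnga1, the rod channel subunit, had 0.183 and 37.1. Cngb1, its partner, has a row on chromosome 8, with 0.422 and 44.3, and another on chromosome 5 inside Tnrc18, with 0.415 and 39.2. The 2 Cngb1 rows may share reads, and the one on chromosome 5 is uncertain.

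Genes that end the light response or tune it were higher as well. Sag, rod arrestin, had the largest log2 ratio of all rows, 6.41, from an FPKM of 10.1 to 944. Pdc, phosducin, which binds transducin beta and gamma subunits, had 55.6 and 1935, the highest P2 Cd73PC level in the list. Rcvrn, recoverin, had 5.16 and 71.5, and Grk1, a kinase that helps end the response, had 0.496 and 5.69. Gucy2e, the cyclase that restores cyclic GMP, had 0.481 and 13.5. Guca1b, a cyclase activator, was the row that did not pass 2-fold, with 0.361 and 1.09. Gucy2f and Slc24a1 were below FPKM 1 in both libraries.

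The members differed in how near they were to their P8 Cd73PC level. Pdc was at 65.3% of it at P2, Gngt1 at 31.6%, Sag at 22.6%, and Pde6b at 16.7%. Rcvrn stood at 6.39%, Grk1 at 6.22%, Pde6a at 6.21%, and Gnat1 at 3.61%.

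**Figure D2:**
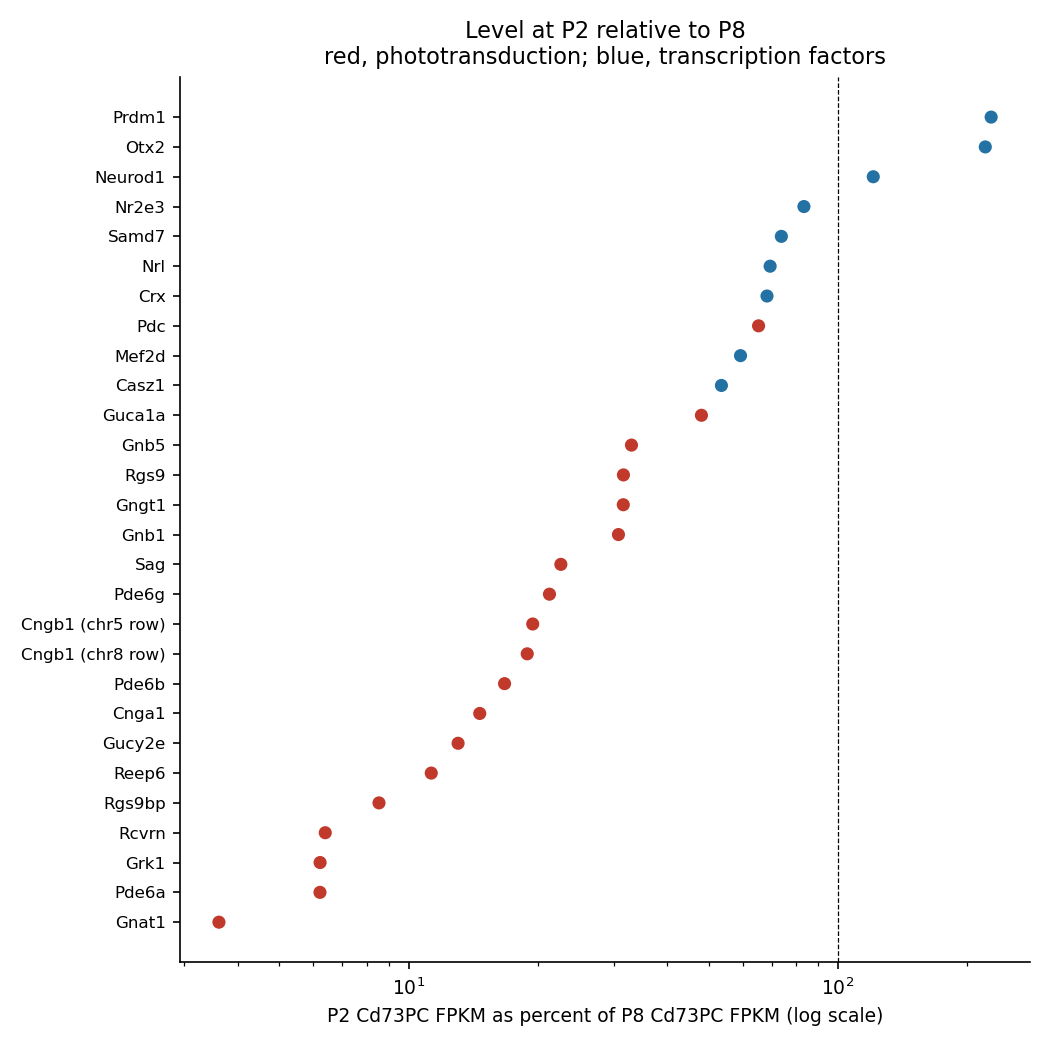
P2 Cd73PC FPKM as a percentage of P8 Cd73PC FPKM (horizontal axis, log scale) for 19 of the 20 higher rows of the phototransduction list (red) and of the transcription factor list (blue), 1 library each. The transcription factors lie between 53.5% (Casz1) and 227% (Prdm1), and the phototransduction rows between 3.61% (Gnat1) and 65.3% (Pdc).

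The promoters of Sag and Gngt1, the rows with the largest ratios, are shown because homeodomain factors of the Crx and Otx2 kind bind TAATCC. Each run is the 200 bases before the start of the gene, on the gene's own strand, from RefSeq on GRCm38.p6 (not the build of the tables). Capitals mark TAATCC, which reads GGATTA on the other strand.
Sag, chr1:87803480-87803679, plus strand: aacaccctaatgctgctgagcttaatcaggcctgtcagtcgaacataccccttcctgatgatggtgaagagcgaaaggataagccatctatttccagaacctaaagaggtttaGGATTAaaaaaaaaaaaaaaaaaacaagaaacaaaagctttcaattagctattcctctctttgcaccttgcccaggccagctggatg
Gngt1, chr6:3993808-3994007, plus strand: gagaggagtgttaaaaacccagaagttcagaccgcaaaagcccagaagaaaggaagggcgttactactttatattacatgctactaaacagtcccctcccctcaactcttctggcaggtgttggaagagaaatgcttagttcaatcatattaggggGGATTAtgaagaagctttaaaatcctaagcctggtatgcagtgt

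The Sag match lay 87 to 82 bases before the start and the Gngt1 match 44 to 39 bases before it. Within 250 bases before the start, TAATCC on either strand was in 6.38% of all 27025 promoters. A share over the phototransduction list is void, since 12 of its 20 genes had a promoter in the table. Of those 12, 7 held it. The promoters of Nrl and Nr2e3, searched in the same way, held none.

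Outer segments are the disc-filled cilia in which light is caught. Of 28 genes of outer segment, disc, and photoreceptor maintenance, 26 were higher and 0 lower, with a median log2 ratio of 3.21. Prph2 and Rom1, the tetraspanins of disc rims, had an FPKM of 12.2 and 30.1 at E18 and 424 and 873 in P2 Cd73PC. Rp1, a microtubule protein of the axoneme, had 3.21 and 113. Nxnl1, which encodes a rod-derived cone viability factor, had 1.72 and 61.2. Unc119, which carries lipid-modified transducin, had 95.1 and 815. Impg1, of the matrix between photoreceptors, was listed at 0 at E18 and had 12.3 in P2 Cd73PC. Crb1 (20.7 and 20.4) and Rpgr (11.3 and 11.6) were within 2-fold.

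The photoreceptor synapse releases glutamate from a ribbon. Of 21 genes, 12 were higher and 1 was lower, with a median log2 ratio of 1.31, or 2.05 without a pseudocount. Slc17a7, the vesicular glutamate transporter of photoreceptors, had an FPKM of 4.26 at E18 and 72.7 in P2 Cd73PC. Egflam, or pikachurin, which links rods to bipolar dendrites, had 15.9 and 152. Cplx3, a complexin of ribbon synapses, had 14.8 and 135, and Cacna2d4, a calcium channel subunit, had 2.19 and 26.7. Snap25, of the fusion machinery, had 87.0 and 361. Ctbp2, whose locus makes the ribbon protein Ribeye, had 47.5 and 85.5, within 2-fold, and Vamp2 had 86.5 and 107. The gene that was lower was Tpbg, with 5.11 and 1.47, and after quantile normalization it was within 2-fold.

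Of 12 compared cone genes, 6 were higher and 0 lower. Gngt2, the cone transducin gamma subunit, had an FPKM of 125 at E18, 80.3 in P2 Cd73NC, and 1259.8 in P2 Cd73PC. Gnb3, the cone beta subunit, had 63.0 and 208. Opn1sw, the short-wave opsin, had 39.8 and 86.2. Pde6h was listed at 0 at E18 and had 19.4 in P2 Cd73PC, with 15.7 in P2 Cd73NC. Gnat2, the cone transducin alpha subunit, had 18.6 and 21.9, and Thrb, the thyroid hormone receptor of cones, had 11.4 and 15.0, both within 2-fold. The members were therefore split, with cone beta and gamma subunits higher and the alpha subunit level.

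All 25 mitosis genes of the list were lower in P2 Cd73PC, with a median log2 ratio of -1.43 and a range from -1.13 (Cenpa) to -2.42 (Mki67). Mki67, which coats mitotic chromosomes, had an FPKM of 60.9 at E18, 40.4 in P2 Cd73NC, and 10.5 in P2 Cd73PC. Top2a, which untangles DNA, had 141, 128, and 40.4, and Ube2c, which serves the anaphase-promoting complex, had 107, 114, and 45.7. Cdk1, the mitotic kinase, had 47.8, 52.9, and 15.5, and Ccnb1, its cyclin, had 80.9, 85.7, and 27.7. The P2 Cd73NC values are from a library that shares its age with P2 Cd73PC, and they stood near those of E18. The list median FPKM was 45.4 at E18, 52.0 in P2 Cd73NC, 15.5 in P2 Cd73PC, and 0.645 in P8 Cd73PC.

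DNA replication genes gave much the same picture, with 28 of 30 lower, 0 higher, and a median log2 ratio of -1.52. Mcm10, which helps start replication, had an FPKM of 13.8 at E18 and 1.94 in P2 Cd73PC, and Uhrf1, which recruits the maintenance methyltransferase, had 95.9 and 18.7. Mcm3, of the replicative helicase, had 73.6 and 14.8. Pcna, the sliding clamp, had 289 and 134. Rfc3, of the clamp loader, was within 2-fold, with 32.7 and 19.2. Their list median FPKM was 38.6 at E18, 43.2 in P2 Cd73NC, and 14.2 in P2 Cd73PC.

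The promoters of Cdk1 and Top2a are shown since many cell cycle promoters carry CCAAT boxes, bound by NF-Y, and a second element, the CHR, searched as TTTGAA. Each is again 200 bases before the start, on the gene's strand, from RefSeq on GRCm38.p6. Capitals mark the CCAAT box, which reads ATTGG on the other strand, and the CHR, which on the other strand reads TTCAAA.
Cdk1, chr10:69352913-69353112, minus strand: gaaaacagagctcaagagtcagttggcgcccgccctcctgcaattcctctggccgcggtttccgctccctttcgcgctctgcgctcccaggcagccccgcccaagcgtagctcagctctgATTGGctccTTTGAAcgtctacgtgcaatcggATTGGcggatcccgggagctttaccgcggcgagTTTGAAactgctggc
Top2a, chr11:99024190-99024389, minus strand: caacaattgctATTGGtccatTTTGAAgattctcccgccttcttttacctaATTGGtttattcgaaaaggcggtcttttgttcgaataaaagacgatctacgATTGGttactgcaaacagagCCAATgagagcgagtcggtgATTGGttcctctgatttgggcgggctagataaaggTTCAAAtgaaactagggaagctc

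Within 250 bases before the start, CCAAT on either strand was in 18 of the 22 mitosis genes that had a promoter in the table (81.8%) and in 17 of 25 replication genes (68.0%), beside 34.5% of all 27025 promoters. TTTGAA was in 7 of the 22 (31.8%), beside 16.3% of all, and TTTGGCGC, an E2F site, was in 3 of the 25 replication genes, beside 0.437% of all promoters. TTTGAA does not overlap either of the others. Cdk1 and Top2a hold both elements, while Ccnb1 and Plk1, searched in the same way, held CCAAT and no TTTGAA. These are matches of letters and not sites.

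**Figure D3:**
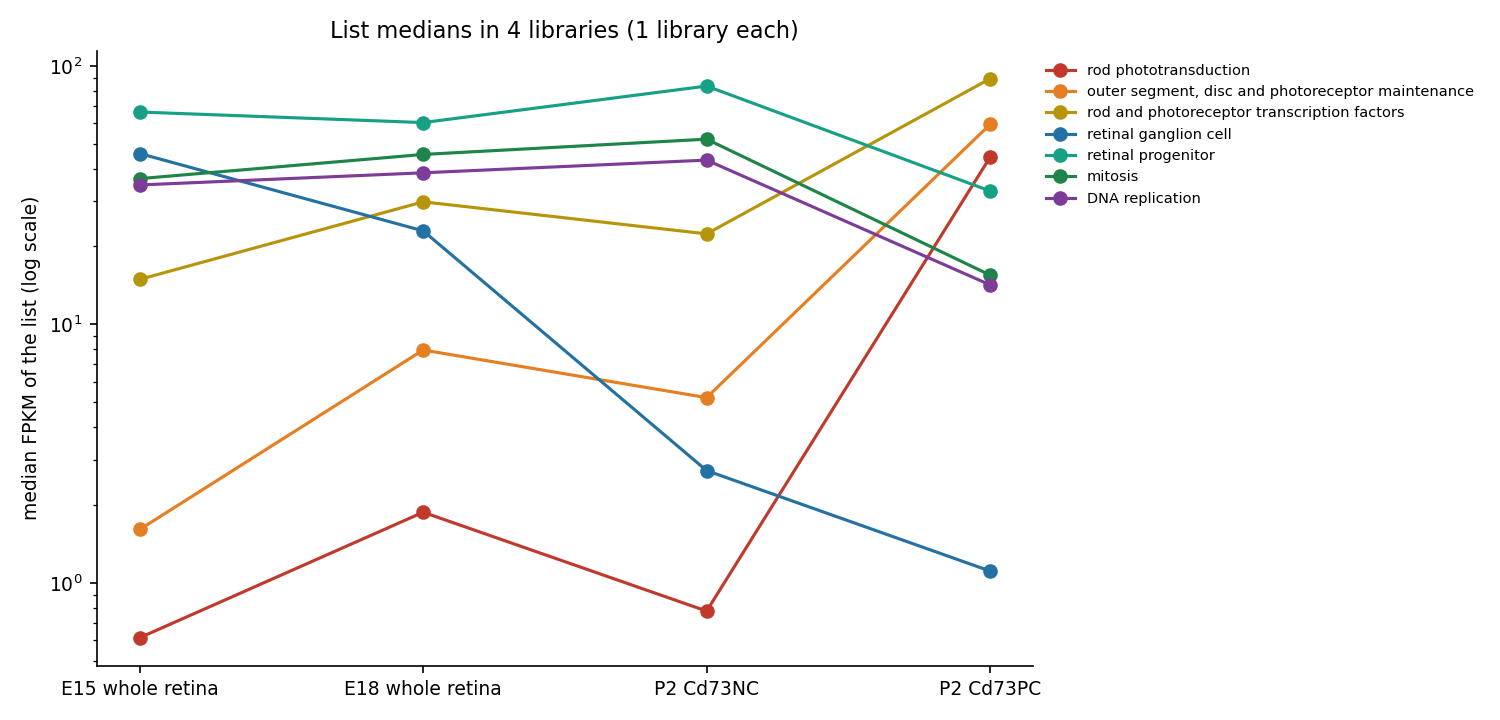
Median FPKM (log scale) of 7 gene lists in the libraries of E15 and E18 whole retina, P2 Cd73NC, and P2 Cd73PC (1 library each, lines join points of a list). The mitosis list is at 45.4, 52.0, and 15.5 in E18, P2 Cd73NC, and P2 Cd73PC, while the ganglion cell list is at 23.0, 2.72, and 1.11.

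Genes of the G1 phase and of cell cycle exit were less uniform, with 10 of 21 rows lower and 1 higher. Ccnd1, the main D cyclin of retinal progenitors, had an FPKM of 1084 at E18, 1095 in P2 Cd73NC, and 272 in P2 Cd73PC. Cdk2 had 34.1 and 9.69, and E2f1, a target and partner of Rb, had 58.9 and 18.6. Ccnd2 was the row that was higher, with 3.85 at E18, 0.239 in P2 Cd73NC, and 9.75 in P2 Cd73PC. The inhibitor Cdkn1b had 73.2 and 110, and Rb1 had 16.1 and 25.8, both within 2-fold.

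Progenitor genes were lower in 16 of 24 cases and higher in 1, with a median log2 ratio of -1.26. Gli1, a target of Hedgehog signalling, had an FPKM of 43.7 at E18, 14.0 in P2 Cd73NC, and 2.56 in P2 Cd73PC. Fgf15, a growth factor of early progenitors, had 299, 152, and 27.9. Hes5, an effector of Notch, had 158, 108, and 25.2. Pax6 had 176 and 44.3. Rax was level, with 233 and 254, and Meis1 had 34.9 and 33.8. The gene that was higher was Fabp7, a brain fatty acid-binding protein, with 142 at E18, 458 in P2 Cd73NC, and 951 in P2 Cd73PC. Fabp7 was at 484% of its P8 Cd73PC level at P2.

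Of 17 proneural and Notch ligand genes, 9 were lower and 3 higher. Foxn4, which favours amacrine and horizontal fates, had an FPKM of 61.9 and 7.15. Atoh7, needed for ganglion cells, had 143 and 20.9, and Neurog2 had 79.3 and 13.6. Hes6 had 515 and 230, and the Notch ligand Dll1 had 34.2 and 9.15. The genes that were higher were Neurod4 (62.5 and 349), Insm1 (54.2 and 177), and Btg2 (73.6 and 175), an antiproliferative gene. Neurod4 was also at 252 in P2 Cd73NC.

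Ganglion cells are the first neurons born and send axons to the brain. Of 24 genes, 22 were lower and 0 higher, with the most negative median of all lists that held at least 5 rows, -3.25, and -4.71 without a pseudocount. Sncg, gamma-synuclein, had an FPKM of 295 at E18, 3.65 in P2 Cd73NC, and 1.39 in P2 Cd73PC. The neurofilament genes Nefl (125, 5.90, and 1.94) and Nefm (54.4, 6.26, and 2.02) took the same course. Gap43, a growth cone protein, had 241, 31.4, and 9.51. Pou4f1, Pou4f2, and Pou4f3, the Brn3 factors, had 26.9, 14.1, and 11.7 at E18 and 0.553, 0.143, and 0.0434 in P2 Cd73PC. Stmn2 had 229, 62.7, and 16.3. Sox4, which other young neurons also express, had 190, 270, and 72.9. Nefh and Prph, at FPKM 1.78 and 1.23 at E18, were not past 2-fold.

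The list was low in both P2 fractions, with a median FPKM of 23.0 at E18, 2.72 in P2 Cd73NC, and 1.11 in P2 Cd73PC. The summed FPKM of the 24 genes was 1470.4 at E18, 450.3 in P2 Cd73NC, and 135 in P2 Cd73PC. Sox4, which other young neurons also express, made up most of the sum in both P2 fractions. The part of age and that of the dissociation in these ratios cannot be told apart.

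Genes of interneurons had list medians nearer to 0. Of 16 amacrine genes, 10 were lower and 1 higher, but after quantile normalization 4 were lower. Calb2, calretinin, had an FPKM of 116 at E18, 18.8 in P2 Cd73NC, and 4.54 in P2 Cd73PC, a log2 ratio of -4.40. Barhl2 had 17.1, 19.5, and 3.59, and Prdm13 had 21.9, 37.6, and 7.08. Slc6a9, the glycine transporter, was higher, with 5.54, 6.56, and 47.9. Tcfap2b had 36.9, 85.9, and 21.1 and did not pass 2-fold. Of 8 horizontal cell genes, 4 were lower and 1 higher (Sept4, 15.6 and 40.6), and after quantile normalization 0 were lower. Prox1 had 12.2 and 4.76, and Onecut1 had 4.29 and 1.61.

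Of 11 bipolar genes, 3 were higher and 3 lower, and after quantile normalization 6 were higher and 2 lower. Gng13, a G protein gamma subunit of ON bipolar cells, had an FPKM of 1.75 at E18, 0.995 in P2 Cd73NC, and 23.3 in P2 Cd73PC. Pcp2 had 3.32, 2.62, and 25.9, and Trpm1, the channel of ON bipolar cells, had 0.218, 0.102, and 2.59. The lower members were the Iroquois factors Irx5 (23.0 and 6.28) and Irx6 (10.4 and 1.51) and Gpr179 (2.18 and 0.551), the last of which was within 2-fold after quantile normalization. The defining genes Vsx1, Grm6, and Bhlhe23 were below FPKM 1 in both libraries, so Gng13 and Pcp2 were high where those markers were not.

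**Figure D4:**
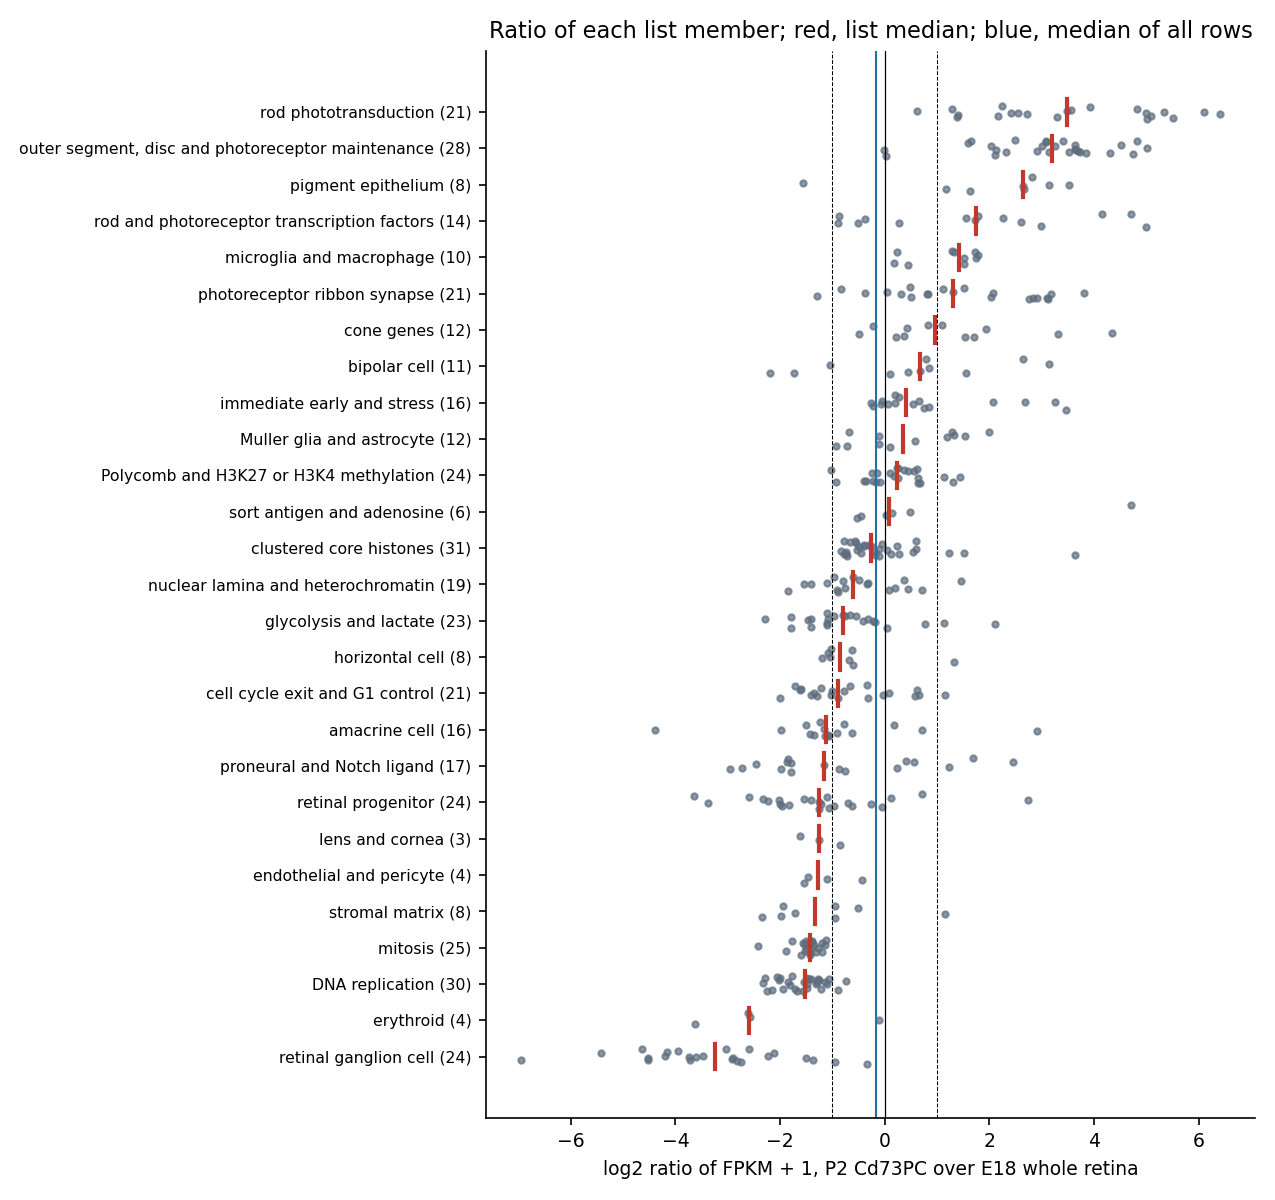
Log2 ratio of FPKM + 1, P2 Cd73PC over E18 whole retina (horizontal axis), for each compared row of the 27 gene lists (1 point per row, number of rows in brackets). Red bars are list medians, the blue line is the median of all rows (-0.17), and dashed lines mark 2-fold; medians run from -3.25 for ganglion cells to 3.48 for phototransduction.

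Markers of other cells were read for the whole of each list. Of 12 pigment epithelium genes, 8 were compared, 7 were higher, and 1 was lower (Rrh, 25.1 and 7.88). Pmel, a melanosome matrix protein, had an FPKM of 2.34 at E18, 0.325 in P2 Cd73NC, and 37.4 in P2 Cd73PC. Dct and Tyrp1, enzymes of melanin synthesis, had 1.41 and 0.605 at E18 and 16.05 and 13.3 in P2 Cd73PC. Rgr, a retinal-binding opsin, had 1.32 and 13.6, and Ttr had 0.390 and 7.76. Tyrp1 and Ttr passed the filter only through P2 Cd73PC, so their direction was set by it. Rpe65, Mitf, and Best1 were below 1 in both libraries, and Rpe65 was listed at 0 in P2 Cd73PC. The summed FPKM of all 12 genes was 32.5 at E18, 33.1 in P2 Cd73NC, and 102 in P2 Cd73PC, beside 4849 for all 23 phototransduction rows in P2 Cd73PC. Over the 8 libraries it ran from 16.5 to 142.

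Of 10 compared microglia and macrophage genes, 7 were higher and 0 lower, at low levels. C1qa, a complement subunit, had an FPKM of 5.49 at E18, 2.44 in P2 Cd73NC, and 15.3 in P2 Cd73PC, and Tyrobp had 1.64, 1.58, and 7.89. Cx3cr1 had 0.507, 0.929, and 4.197, while Ptprc was below 1 in both. The summed FPKM was 19.8 at E18 and 64.3 in P2 Cd73PC. Of 12 genes of Müller glia and astrocytes, 5 were higher and 0 lower. Pdgfra, the receptor of astrocytes, had 3.09, 2.22, and 15.4, Pax2 had 1.05, 0.0925, and 3.71, and S100b had 0.908, 0.0358, and 3.76. Cx3cr1 and S100b passed the filter only through P2 Cd73PC, so their direction was set by it. Apoe had 65.7, 110, and 162, and Clu had 4.99, 2.25, and 16.3. The glial enzyme Glul (214 and 112) and the transporter Slc1a3 (77.3 and 46.6) did not pass 2-fold, but Glul was lower after quantile normalization. The part of these cells in other results was not tested. An alternative chosen after seeing the data left out the pigment epithelium and microglia lists and some glial genes, among them Pdgfra, Pax2, S100b, and Clu. The glial list kept 7 of its 12 rows. Over all rows, 915 were then higher and 2135 lower. These counts could fall only by the rows left out, so they show nothing about the other rows.

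**Figure D5:**
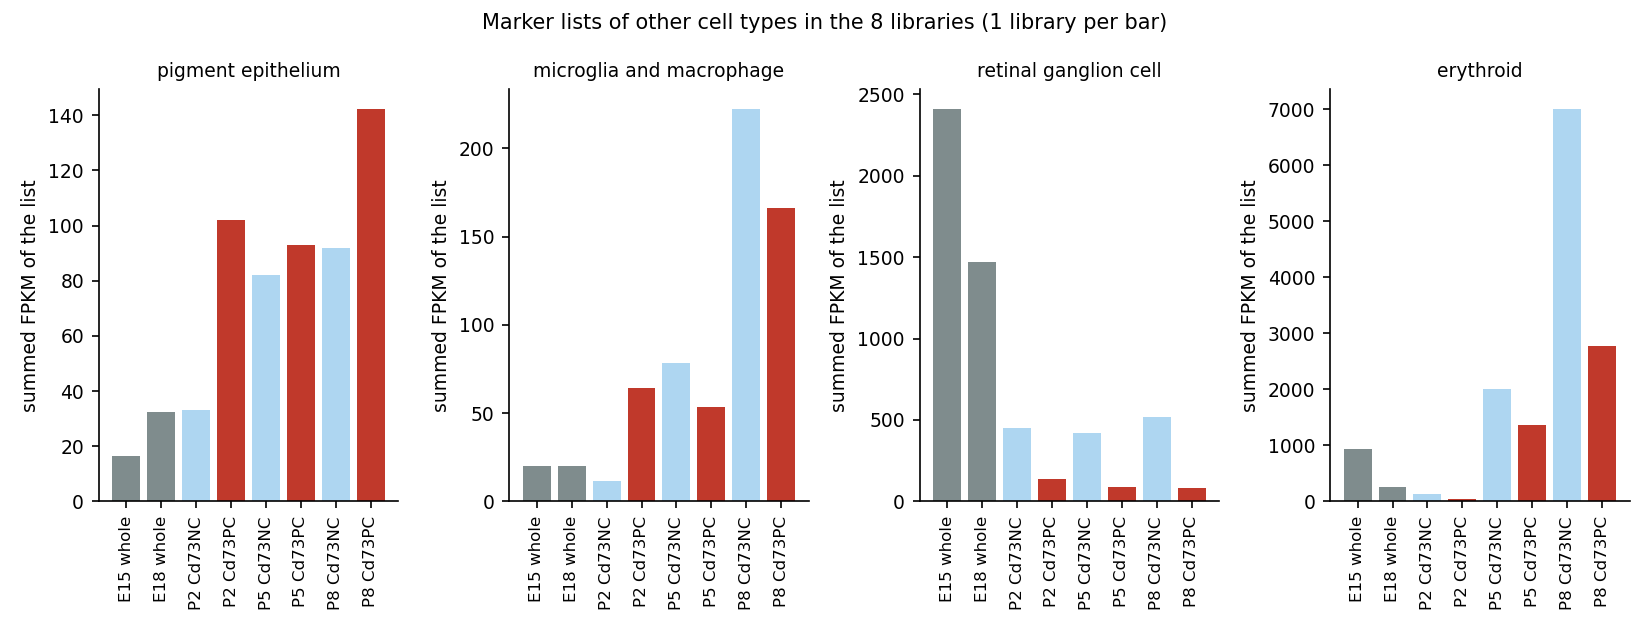
Summed FPKM (vertical axis, linear, from 0) of all rows of 4 marker lists, those below FPKM 1 included, in each of the 8 libraries (1 library per bar; grey, whole retina; blue, Cd73NC; red, Cd73PC). The pigment epithelium sum is 32.5 at E18 and 102 in P2 Cd73PC, and the ganglion cell sum is 1470.4 and 135. Sox4 makes up most of the ganglion cell sum in both P2 fractions.

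Most vessel, blood, and lens markers were below FPKM 1 in both libraries. Only 4 of 14 endothelial and pericyte genes were compared, and 3 of them were lower (2 after quantile normalization), among them Kdr, a VEGF receptor, with an FPKM of 87.9 at E18, 139 in P2 Cd73NC, and 29.7 in P2 Cd73PC. Kdr is also expressed in retinal progenitors, and Pecam1 and Cdh5 were below 1 in both libraries. Of 12 erythroid rows 4 were compared and 3 were lower, and Hbb-b2, a beta globin, had 57.0 and 3.68. Hba-a1 has 2 rows in the tables that may share reads. Of 14 stromal matrix genes 8 were compared, and 4 were lower, such as Col6a1 (16.02 and 2.37). Another 3 were within 2-fold, and Fn1, fibronectin, was higher, with 18.4 and 42.1. Over all rows, 16.7% were lower and 7.30% higher. Of 20 lens and cornea genes, 17 were below FPKM 1 in both libraries. Cryaa had 1.496 and 0.0421, and Crygc had 2.05 and was listed at 0 in P2 Cd73PC. Both passed the filter only through E18, so their direction was set by it. Without the filter the list medians were nearer to 0, at -0.13 for endothelial, -0.04 for erythroid, -0.39 for matrix, and -0.46 for lens genes.

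Of 16 immediate early and stress genes, 4 were higher and 0 lower. Egr1 had an FPKM of 0.877 at E18, 9.01 in P2 Cd73NC, and 17.0 in P2 Cd73PC, and Fos had 1.75, 5.61, and 10.5. Junb had 1.86, 3.80, and 17.3, and Ier3 had 6.49, 3.12, and 81.9. Fos and Egr1 were thus above E18 in both sorted fractions, and Ier3 in Cd73PC alone. The part of the dissociation and sort in these values was not tested. The heat shock genes Hsp90aa1 (199.7 and 230.1) and Hspa5 (131 and 149) were within 2-fold.

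The study followed histone methylation, so its enzymes were listed. Of 24 genes of Polycomb and of H3K27 or H3K4 methylation, 20 were within 2-fold. The shares were 12.5% higher and 4.17% lower, beside 7.30% and 16.7% of all rows. Ezh2, the H3K27 methyltransferase of dividing cells, had an FPKM of 65.2 at E18 and 49.1 in P2 Cd73PC, and Ezh1, its relative in nondividing cells, had 6.24 and 10.3. Jarid2, a cofactor of the same complex, was higher, with 10.9 and 31.2, as was Kdm5b, an H3K4 demethylase (25.4 and 57.3). Cbx2, of Polycomb repressive complex 1, was lower, with 23.2 and 10.8, and came within 2-fold after quantile normalization.

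Of 31 clustered histone genes, 3 were higher (9.68%) and 0 lower, beside 7.30% higher and 16.7% lower over all rows. All 3 encode linker histones. After quantile normalization 5 were higher, with Hist1h1a and Hist1h4c added. Hist1h1c had an FPKM of 14.6 at E18, 35.3 in P2 Cd73NC, and 192 in P2 Cd73PC. Hist1h1d had 0.887 and 4.39, and Hist1h1e had 2.31 and 6.79. Most replication-dependent histone messages lack a poly(A) tail, and near-identical copies share reads of 36 bases, so levels of single core histones are uncertain. Of 19 genes of the nuclear lamina and heterochromatin, 4 were lower (21.1%) and 1 higher (5.26%). These shares were near those of all rows, 16.7% and 7.30%. Cbx5, which encodes HP1 alpha, had 55.2 and 14.6, and Lbr, which ties heterochromatin to the nuclear envelope and is absent from mature rods, had 46.9 and 21.2. Lmnb2 had 24.5 and 8.60, and Hmga2 had 4.92 and 1.02. Hmgn2, a nucleosome-binding protein, was higher, with 318 and 876.

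Of 23 glycolysis and lactate genes, 10 were lower (43.5%) and 2 higher (8.70%), beside 16.7% and 7.30% of all rows. Ldha, the lactate dehydrogenase subunit of photoreceptors, had an FPKM of 762 at E18, 615 in P2 Cd73NC, and 1683 in P2 Cd73PC, and Aldoc, an aldolase, had 9.18, 3.34, and 43.2. Slc16a3, a lactate exporter, had 68.3 and 13.1, and Slc2a3, a glucose transporter, had 7.33 and 1.41. Pgk1 had 598 and 215. Pkm2, the name of the pyruvate kinase row, was level, with 1268 and 1113. Members thus differed in direction, but the share of higher ones was near that of all rows.

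A few genes went from near 0 to a high level, or the reverse. Below FPKM 1 at E18 and at 20 or more in P2 Cd73PC were 6 rows, namely Cnga1, both rows of Cngb1, Rdh8, Apobec2, and Gje1. Rdh8, a retinol dehydrogenase of outer segments, had 0.902 and 23.7. Apobec2, of a cytidine deaminase family, had 0.521 and 21.0, and Gje1, a connexin-like gene, had 0.426 and 25.4. Gje1 was at 294% of its P8 Cd73PC level at P2. In the other direction, 33 rows (32 symbols) went from at least 10 to below 1. Among them Thy1, a surface protein of ganglion cells, had 29.2 and 0.214, Rbpms, an RNA-binding marker of those cells, had 40.1 and 0.780, Syt13 had 21.0 and 0.266, and Pcp4 had 29.9 and 0.747.

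Some of the rows with the largest ratios were in no list, more of them among the lower rows than among the higher. Of the 25 rows highest by ratio, 20 were in a list. Those in none included Htra1, a secreted serine protease, with an FPKM of 5.77 at E18, 5.12 in P2 Cd73NC, and 192 in P2 Cd73PC, Ebpl, a sterol isomerase relative, with 10.8, 8.84, and 170, and BC033916, with 8.38, 8.07, and 158. Of the 25 rows lowest by ratio, 12 were in a list, 10 of them in that of ganglion cells. The others included the neuronal genes Nell2 (43.9 and 1.35), Mapt, or tau (94.6 and 5.67), Rph3a (42.1 and 1.77), Kif5a, a kinesin of axons (40.9 and 1.95), and the noncoding RNA Miat (81.1 and 4.51). Atp6v0c-ps2 had 107 and 0.126, but it lies on the same stretch of chromosome 17 as Atp6v0c, which had 134 and 386. In the same way Pisd-ps1 (16.6 and 0.0687) and Pisd-ps3 (0.0422 and 10.03) share a locus and went opposite ways, as did Hist2h2aa2 (12.02 and 0.00371) and Hist2h2aa1 (7.53 and 40.8). How reads were split between such rows is uncertain.

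The step from an embryonic whole retina to sorted cells was available once more, from E15 whole retina to P5 Cd73PC, with no library in common. It is at other ages and is not a replicate. Over 12775 of the same rows, 1374 (10.8%) were higher and 2965 (23.2%) lower in P5 Cd73PC. Of the 933 rows higher from E18 to P2 Cd73PC, 753 were higher there too, which is 80.7% of the first list and 54.8% of the second, and 4 were lower. Of the 2134 lower rows with a value, 1825 were lower there too, 85.5% and 61.6%, and 6 were higher. The rows higher from E18 to P2 Cd73PC had a median FPKM of 6.92 at E18 and 26.4 in P2 Cd73PC, a gap set by how they were chosen. Their median was 6.71 in P2 Cd73NC and 27.96 in the P8 Cd73PC library. The lower rows had 10.3 at E18 and 2.56 in P2 Cd73PC, again set by the choice, with 6.71 in P2 Cd73NC and 1.26 in P8 Cd73PC.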

How the data were processed

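RNA had been sequenced as 36-base single reads. The authors aligned them to NCBI37/mm9 with TopHat2 2.0.8b, and Cufflinks 2.1.1 gave the FPKM and its bounds in the deposited tables (versions from the submitters' processing notes). FPKM lay above its own upper bound in 1449 rows at E18 and 2052 in P2 Cd73PC. Of 20643 genes, 20582 overlapped the same gene in an annotation of that build.

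Here, log2((FPKM + 1) ratios) were taken with Python 3.11.15, numpy 2.4.6, and pandas 2.3.3. The pseudocount of 1 understates ratios of weak genes. Failed estimates were missing values. With 1 library per group no p-value was computed. The code was tested on simulated data. The 27 lists were written by hand, and they and the comparison were chosen with earlier results of these data known. Named genes were the sort antigen and rod factors, the 25 largest ratios in each direction, genes switching between low and high, and, in each list, the highest levels, largest ratios, and defining members. Others that are named were chosen after their values were seen. The alternatives were other pseudocounts, filters, scalings, thresholds, and row rules. Some genes are not reported here.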

Additional observations from a re-analysis of the deposited data

Results flagged for a closer look

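Small RNA rows were outside the comparison, and 4 of them were listed at 0 in both whole retina libraries and were above FPKM 100 in P2 Cd73PC. The FPKM of Snord42a was 807 in P2 Cd73PC, and the row was listed at 0 in the other 7 libraries. Mir3091 had 152 in P2 Cd73PC and 64.6 in P2 Cd73NC. Scarna2 had 135 in P2 Cd73PC and was listed at 0 in P2 Cd73NC. Mir568 had 106 in P2 Cd73PC and 135 in P2 Cd73NC. There were 170 small RNA rows with FPKM of at least 1 in either library. Of them, 25 were listed at 0 at E18 and at 20 or more in P2 Cd73PC. Another 32 were at 20 or more at E18 and listed at 0 in P2 Cd73PC. FPKM is per length and these rows are short, so a few reads can give such values. Mir1964 and Mir3060, which have the same length, both had 35.4 in P2 Cd73PC. The levels of single small RNA rows and these counts are therefore uncertain.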

How the results depend on the processing

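No list median or named gene that was at least 2-fold apart changed sign. Of 294 list medians under the alternatives, 4 changed sign, all of 2 lists near 0. That of Müller glia and astrocytes went from 0.34 to -0.01 without a filter and to -0.11 without the marker genes of other cells, and that of clustered histones from -0.26 to 0.12 after quantile normalization and 1.38 over genes whose Cufflinks bounds do not overlap. The median of all rows went from -0.17 to 0.00 after quantile normalization. The counts depended on the fold threshold: at 1.5-fold, 1878 rows were higher and 3872 lower in P2 Cd73PC, and 2364 and 4620 from E15 to P5 Cd73PC, and at 4-fold, 256 and 354, and 488 and 1036. Under every other alternative the counts stayed within 1.5 times those reported, from 793 (FPKM of at least 5) to 1283 (quantile normalization) higher and from 1499 (quantile normalization) to 2923 (no pseudocount) lower. Of the list medians, 21 moved by more than 1.5-fold. Without a filter 6 moved, with a pseudocount of 0.1 there were 5, and with none 5. Another 3 moved over genes whose Cufflinks bounds do not overlap, and 2 with FPKM of at least 5. Of 4825 values of named genes, 147 moved, 77 without a pseudocount and 69 with one of 0.1. Without a filter on low values, the pigment epithelium median was 1.40 in place of 2.65, and those of endothelial, erythroid, matrix, and lens genes were -0.13, -0.04, -0.39, and -0.46 in place of -1.28, -2.59, -1.34, and -1.26. No paired analysis was possible because each group had 1 library and the labels give no replicate numbers. No replicate could be left out, and the spread between animals is unknown.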

Other observations

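Rows were also grouped by the start of their symbol, a grouping chosen after the data were seen. Groups of at least 8 compared rows were read, beside 16.7% lower and 7.30% higher of all rows. The 8 rows of the beta-tubulin group (Tubb), which holds neuronal and general subunits of microtubules, were all lower, with a median log2 ratio of -2.22. Tubb3, the neuronal beta-tubulin, had an FPKM of 560.1 at E18 and 95.03 in P2 Cd73PC, Tubb2a had 459 and 68.0, and Tubb5 had 1389 and 574. Tubb2a-ps2 may share reads with Tubb2a. Of 12 synaptotagmins (Syt), calcium sensors of membrane fusion, 7 were lower and 0 higher. Syt5 had 18.6 and 1.14, while Syt1, the main sensor of fast release, had 50.7 and 89.9, within 2-fold. Of 17 semaphorins (Sema), which guide axons, 10 were lower and 1 higher, Sema7a, with 8.19 and 25.5.

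The Bardet-Biedl group (Bbs), whose products carry cargo in cilia, had the highest median of these groups, 1.14, with 4 of 8 rows higher and 0 lower. Bbs5 had an FPKM of 3.97 at E18 and 26.4 in P2 Cd73PC, Bbs9 had 10.3 and 43.7, and Bbs10 had 3.40 and 3.33. Of 32 kinesins (Kif), motors on microtubules, 17 were lower and 2 higher. The higher rows were Kif19a, with 14.6 and 69.0, and Kif9, with 0.445 and 2.94.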
